A study of Homo sapiens with 6 samples.

Results

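The 10 genes described here encode intermediate filament proteins and nuclear lamins: the keratins KRT8, KRT18 and KRT10, the mesenchymal and neural filament proteins VIM, NES, GFAP and SYNM, and the lamins LMNA, LMNB1 and LMNB2. They were chosen by gene symbol, without regard to their values, and all 10 were among the 58174 genes measured in every library. The cells were LN-229, a human glioblastoma line in long use. Of the 6 libraries, 3 came from cells with the control treatment (control-NC in the labels) and 3 from cells treated with sh-JMJD1C, which by the usual naming is a short hairpin RNA that targets JMJD1C, a histone demethylase of the JmjC type. RNA of both groups was nuclear-enriched and had its ribosomal RNA removed before sequencing, and the title of the study asks for the target genes of JMJD1C. The labels name neither the hairpin's sequence nor a clone, a time after delivery or separate cultures, so every p-value below measures only the spread between these libraries.

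Intermediate filaments are rope-like polymers built from coiled-coil proteins. Type I keratins such as KRT18 and KRT10 assemble only as pairs with type II keratins such as KRT8, and KRT8 with KRT18 is the pair of simple epithelia. Vimentin is the filament protein of mesenchymal cells and of most glioma lines, while GFAP marks astrocytes, nestin marks neural progenitors and synemin is a large partner that copolymerizes with vimentin or GFAP. Lamins are the filaments of the nucleus: LMNA gives lamins A and C, LMNB1 and LMNB2 give the B-type lamins, and together they form the meshwork under the inner nuclear membrane.

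KRT8 and KRT18 were the members with the largest differences between the groups, and for both, all sh-JMJD1C libraries lay above all controls. KRT8 went from 17.3 ± 5.11 to 137 ± 70.0 scaled FPKM and KRT18 from 57.8 ± 19.0 to 202 ± 48.0 (mean ± SD, n = 3 libraries each, as for all levels below). FPKM are reads divided by gene length in kilobases and by library size, and scaled FPKM have been divided by a factor per library that makes the typical gene equal between libraries. VIM differed little, at 53.4 ± 8.67 and 56.9 ± 8.44 scaled FPKM. LMNA and LMNB2 were higher and SYNM was lower in every sh-JMJD1C library by smaller amounts that neither of the tests below called. GFAP and NES were at or near 0 in both groups.

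The groups were compared with 2 tests that did not make the same calls. The first test, limma on log2(scaled FPKM + 0.5), called 0 of the 9 members it tested at a Benjamini-Hochberg adjusted p under 0.05, where it called 0.185% of all 18383 genes tested. KRT8, KRT18, LMNA, LMNB2 and SYNM had an unadjusted p under 0.05 in that limma fit, as did 3658 of all genes. The second test was limma-voom on the whole reads that could be recovered from the deposited values, over the 11877 genes with at least 60 reads in the 6 libraries together. It called 2 of the 8 members it tested, KRT8 and KRT18, both higher, against 5.52% of all genes, made up of 3.71% higher and 1.81% lower. Restricting the limma fit on FPKM to 10169 protein-coding genes also called KRT8 and KRT18, where 8.96% of genes were called. In the text below, "rose" and "fell" are used only of genes called on recovered reads.

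The libraries held 544442 (control 1) to 2960454 reads (control 3), with 15926 to 25734 genes above 0. The limit for a gene with 0 reads is 3 reads, or 5.51 RPM (reads relative to the library total) in control 1 and 1.01 to 1.81 RPM in the others. JMJD1C itself, the targeted gene, had 145, 114 and 236 RPM in control 1 to 3 against 45.3, 8.33 and 24.1 RPM in sh-JMJD1C 1 to 3, lower in every sh-JMJD1C library. The makeup of the RNA also varied between libraries. RN7SL genes, which give the RNA part of the signal recognition particle, took 0.378% to 1.77% of control reads, 1.18% in sh-JMJD1C 1 and 15.7% and 18.5% in sh-JMJD1C 2 and 3. MALAT1, a long non-coding RNA kept in the nucleus, took 1.25% to 2.40% of control reads and 0.0915% to 0.292% of sh-JMJD1C reads. Mitochondrial genes took 12.6% of reads in sh-JMJD1C 1, 1.33% to 1.70% in the other sh-JMJD1C libraries and 2.93% to 8.70% in the controls, and the single gene ENSG00000281181 took 25.0% of the reads of control 1. The part of these classes in the results below was not tested.

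Both keratins that differ have many intron-less copies (processed pseudogenes) in the genome, and the counts on them are given before those of the genes. How the authors assigned reads that match more than one place is not given in the sources used here, so the split of reads between each gene and its copies is uncertain. Reads given to annotated KRT8 pseudogenes made up 7.65%, 9.93% and 11.9% of the reads on KRT8 and its pseudogenes together in control 1 to 3 against 7.04%, 5.67% and 7.08% in sh-JMJD1C 1 to 3. For KRT18 this share was 8.14%, 4.18% and 6.93% in the controls against 4.54%, 2.93% and 2.75% in the sh-JMJD1C libraries. Most reads of either family were therefore counted on the functional gene in every library.

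The copies whose reads were looked at singly did not all differ the same way. KRT8P3, a pseudogene on chromosome 8, had 6, 31 and 29 reads in control 1 to 3 against 101, 225 and 138 reads in sh-JMJD1C 1 to 3, a log2 fold change of 3.28 (limma-voom adjusted p = 0.0105) whose call was lost only without control 3 (0.0778). KRT8P45 had 0, 23 and 23 reads against 31, 87 and 78, a log2 fold change of 2.69 that was not called (adjusted p = 0.0520 in limma-voom). KRT18P17 had 1, 3 and 12 reads against 20, 28 and 9, and was not called (limma-voom adjusted p = 0.0685). Its groups overlapped in raw reads but not as RPM, where control 3 had 4.05 RPM and sh-JMJD1C 3 had 5.42 RPM. KRT8P33 had 0, 8 and 23 reads against 8, 16 and 19 (log2 fold change 1.12, limma-voom adjusted p = 0.309). With too few reads for a test, KRT18P11 had 0, 4 and 10 reads against 19, 8 and 7, and KRT18P31 had 4, 9 and 14 against 11, 4 and 2.

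KRT8 (ENSG00000170421, chr12:52897187-52949954, minus strand, hg38), the type II keratin of simple epithelia, had 16.3, 22.8 and 12.7 scaled FPKM in control 1 to 3 against 69.6, 209 and 132 scaled FPKM in sh-JMJD1C 1 to 3. The lowest sh-JMJD1C library, number 1, stood well above the highest control, and sh-JMJD1C 2 and 3, the libraries with the high RN7SL shares, were the highest. The values rest on 169, 1207 and 1076 reads in the controls against 2681, 6951 and 4198 in the sh-JMJD1C libraries. As RPM of the whole library, without scaling, the exact 95% binomial intervals of the closest libraries were 569 to 637 RPM in control 2 and 1539 to 1661 RPM in sh-JMJD1C 1, so counting error did not bring the groups together.

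On recovered reads KRT8 rose by a log2 fold change of 2.94 (SE 0.47), 7.70-fold, with an adjusted p of 0.0116 in limma-voom. Removing each library's trend over transcript length left 2.81 (adjusted p = 0.0132, limma-voom), a fit that called 3.42% of genes. In the limma fit on FPKM the log2 fold change was 2.85 (SE 0.51) with an adjusted p of 0.0841. KRT8 was no longer called on reads once control 1 (limma-voom adjusted p = 0.0670), control 3 (0.0594) or sh-JMJD1C 2 (0.0686) was left out. With both libraries numbered 1 left out it was called, at 3.38 (limma-voom adjusted p = 0.0105), in a fit that called 8.38% of 11315 genes.

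KRT18 (ENSG00000111057, chr12:52948871-52952901, plus strand), the type I partner of KRT8, had 56.2, 77.6 and 39.6 scaled FPKM in control 1 to 3 against 189, 255 and 161 scaled FPKM in sh-JMJD1C 1 to 3. The groups did not overlap, and unlike KRT8 the level in sh-JMJD1C 1 lay between those of the other sh-JMJD1C libraries. On recovered reads KRT18 rose by 1.87 (SE 0.41) on the log2 scale, 3.66-fold, with an adjusted p of 0.0303 in limma-voom. With the length trend removed its log2 fold change was 1.40 and no longer called (adjusted p = 0.0607, limma-voom), and on FPKM it was 1.82 (SE 0.43, adjusted p = 0.125 in limma). After quantile normalization of the FPKM it was 0.72 (limma adjusted p = 0.465). KRT18 was no longer called on reads once control 1 (limma-voom adjusted p = 0.125), control 3 (0.127), sh-JMJD1C 2 (0.141) or, taken singly as well, sh-JMJD1C 3 (0.0654) was left out. With both libraries numbered 1 left out it was called, at 1.96 (limma-voom adjusted p = 0.0472).

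**Figure D1:**
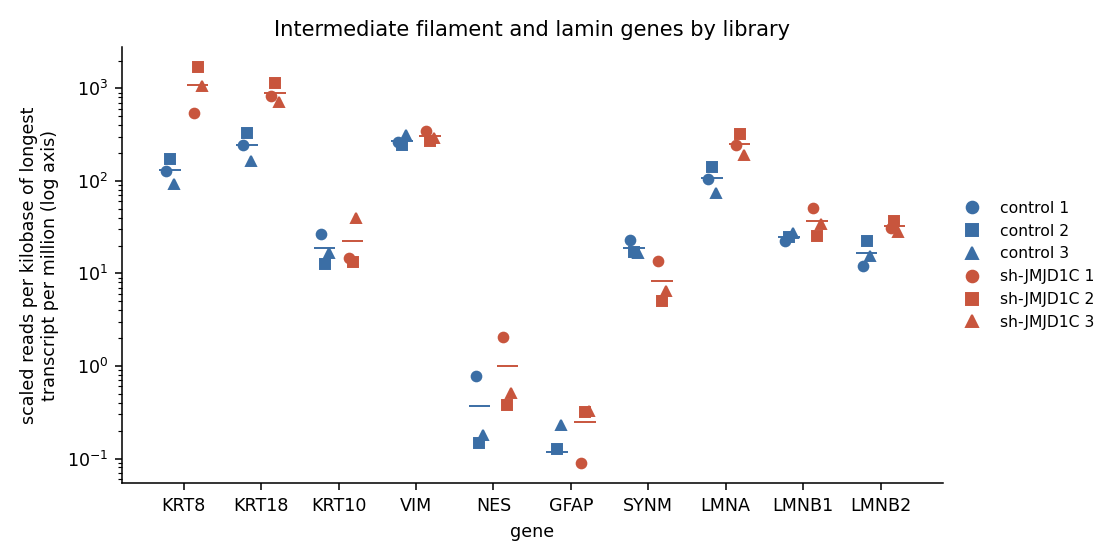
Level of each gene in each library, as scaled RPM per kilobase of the longest annotated transcript (log axis); circles, squares and triangles are libraries 1, 2 and 3, blue is control, red is sh-JMJD1C and short lines are group means. KRT8 and KRT18 stand apart between the groups, VIM does not, and GFAP in control 1 is at 0 and cannot be drawn on a log axis.

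The genes for the keratin pair lie side by side on chromosome 12, and annotated exons of KRT8 and KRT18 on opposite strands share 525 bases, 7.63% of the exon bases of KRT8 and 16.3% of those of KRT18. Whether the authors' counting used strand is not given in the sources used here, so reads in that stretch cannot be assigned to one gene. The members of the pair were also compared within each library. The ratio of KRT8 to KRT18, each as reads per kilobase of its longest transcript, was 0.520, 0.526 and 0.573 in control 1 to 3 against 0.660, 1.47 and 1.47 in sh-JMJD1C 1 to 3. Every sh-JMJD1C library was above every control, but sh-JMJD1C 1 was close to the controls while sh-JMJD1C 2 and 3 had more KRT8 than KRT18. The mean ratio was 0.540 ± 0.0292 for the controls and 1.20 ± 0.468 for sh-JMJD1C. The ratios here and below are descriptions of the libraries and were not tested.

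KRT10 (ENSG00000186395, chr17:40818117-40822595, minus strand), a type I keratin of the differentiating epidermis, had 20.3, 9.91 and 13.6 scaled FPKM in the controls against 11.3, 9.73 and 30.1 in sh-JMJD1C 1 to 3. The groups overlapped, sh-JMJD1C 3 alone was above all controls, and the depth was low at 26 to 143 reads per library. The log2 fold change was 0.09 (SE 0.53, limma adjusted p = 0.933) on FPKM and -0.21 on reads with the length trend removed, so no direction could be given.

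VIM (ENSG00000026025, chr10:17228259-17237593, plus strand), which encodes vimentin, had 49.5, 47.3 and 63.3 scaled FPKM in control 1 to 3 against 66.3, 50.0 and 54.4 scaled FPKM in sh-JMJD1C 1 to 3. The groups overlapped, with the control and sh-JMJD1C libraries in mixed order. The log2 fold change was 0.09 (SE 0.35, limma adjusted p = 0.895) on FPKM and 0.15 (SE 0.36, limma-voom adjusted p = 0.787) on reads, and its sign changed with the scaling: it was -0.21 on FPKM as deposited, where the median of all genes was -0.38, and -0.80 after quantile normalization. VIM rested on 321 to 3363 reads per library. Antisense gene VIM-AS1 overlaps 12.4% of the exon bases of VIM and had 127, 935 and 887 reads in the controls against 997, 568 and 281 in the sh-JMJD1C libraries, also with overlapping groups (log2 fold change 0.31, limma-voom adjusted p = 0.652).

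SYNM (ENSG00000182253, chr15:99098217-99135593, plus strand), which encodes synemin, was the one member that was lower in every sh-JMJD1C library. It had 7.05, 5.25 and 5.44 scaled FPKM in control 1 to 3 against 4.20, 1.47 and 1.95 in sh-JMJD1C 1 to 3, with means of 5.91 ± 0.990 and 2.54 ± 1.45. The groups did not overlap, and sh-JMJD1C 1 was the nearest to the controls. The log2 fold change was -1.17 (SE 0.41, limma adjusted p = 0.196) on FPKM and -1.27 (SE 0.43, limma-voom adjusted p = 0.0835) on reads, neither past the threshold. It was -0.61 (limma-voom adjusted p = 0.305) with the length trend removed and -1.65 with a limma-voom adjusted p of 0.0130 without sh-JMJD1C 1. The fit on reads without sh-JMJD1C 1 called 2305 of 11474 genes. Leaving out any other single library did not give a call of SYNM on reads (limma-voom adjusted p from 0.0875 to 0.310). SYNM-AS2, whose exons lie opposite 25.9% of the exon bases of SYNM, had 27, 159 and 158 reads in the controls against 69, 14 and 24 (log2 fold change -1.43, limma-voom adjusted p = 0.0972). Reads of SYNM and SYNM-AS2 cannot be told apart where they overlap.

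The remaining neural filament genes were barely detected. NES (nestin, ENSG00000132688, chr1:156668763-156677397, minus strand) had 2, 2 and 4 reads in control 1 to 3 against 20, 3 and 4 reads in sh-JMJD1C 1 to 3. Only sh-JMJD1C 1 exceeded a handful of reads, at 11.9 RPM (exact 95% interval 7.29 to 18.4), and the limma fit on FPKM estimated 0.65 on the log2 scale (SE 0.59, adjusted p = 0.544). NES passed the filter of that fit only through sh-JMJD1C 1, at 2.15 deposited FPKM, and was not tested without that library. The estimate therefore gives no direction for NES. GFAP (ENSG00000131095, chr17:44903161-44916937, minus strand) had 0, 2 and 6 reads in the controls against 1, 3 and 3 in the sh-JMJD1C libraries, which is at or under 2.03 RPM in every library and too little for a test. Among the keratin, mesenchymal and neural members, transcripts were thus mainly of VIM, KRT8 and KRT18, with the astrocytic GFAP at the limit of detection. Keratins outside the members, among them KRT7, KRT80 and KRT17, also had many reads and are described below.

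Markers of cell types were read beside the filament genes. Among 11 astroglial and glioma markers, S100B, AQP4, SLC1A3 and OLIG2 had 0 reads in all 6 libraries. Over all libraries together ALDH1L1 had 1 read, SOX2 had 2 and SOX9 had 97. The summed level of the list, nearly all VIM and CD44, was 922 to 1124 scaled RPM in the controls and 899 to 1429 in the sh-JMJD1C libraries. Among 8 epithelial markers, ESRP1 and GRHL2 were at 0 in all libraries, EPCAM had 0, 8 and 11 reads in control 1 to 3 and 0 in sh-JMJD1C 1 to 3, and CDH1 had at most 7 reads. KRT19 had 1 read in all libraries together. CLDN7 and CLDN4 had reads in every library, 420 and 132 in all, with overlapping groups. The summed epithelial level was 351 to 579 scaled RPM in the controls and 501 to 1164 in the sh-JMJD1C libraries, most of it KRT7. Neuronal markers summed to 8.68 to 25.6 against 12.1 to 27.9 scaled RPM, and immune and endothelial markers to at most 2.90 and 4.18. In bulk RNA, fewer cells with a transcript and less transcript per cell cannot be told apart.

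LMNA (ENSG00000160789, chr1:156082573-156140089, plus strand), the gene of the A-type lamins, had 10.3, 14.1 and 7.78 scaled FPKM in control 1 to 3 against 24.1, 30.7 and 18.4 scaled FPKM in sh-JMJD1C 1 to 3, with means of 10.7 ± 3.16 and 24.4 ± 6.13. The groups did not overlap after scaling, but they did as RPM of the whole library, where control 2 had 538 RPM and sh-JMJD1C 3 had 508. The log2 fold change was 1.16 (SE 0.38, limma adjusted p = 0.181) on FPKM and 1.24 (SE 0.39, limma-voom adjusted p = 0.0700) on reads, neither called. It was 1.21 with the length trend removed (limma-voom adjusted p = 0.0839) and was called on reads without sh-JMJD1C 1 (1.27, limma-voom adjusted p = 0.0439). That fit called 2305 of 11474 genes. Leaving out any other single library did not give a call of LMNA on reads (limma-voom adjusted p from 0.0593 to 0.248).

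LMNB2 (ENSG00000176619, chr19:2427638-2456996, minus strand), a B-type lamin gene, had 6.58, 12.6 and 8.93 scaled FPKM in the controls against 17.1, 19.7 and 15.1 in sh-JMJD1C 1 to 3. Here too every sh-JMJD1C library was higher after scaling, and the groups overlapped as RPM. The log2 fold change of 0.89 (SE 0.36, limma adjusted p = 0.239) on FPKM and 0.94 (SE 0.37, limma-voom adjusted p = 0.12) on reads did not pass. An exon overlap on the same strand with TIMM13, a mitochondrial import chaperone, covers 4.73% of the exon bases of LMNB2, and TIMM13 itself rose (log2 fold change 2.20, limma-voom adjusted p = 0.0336). That call was lost when control 1, control 3 or either of sh-JMJD1C 2 and 3 was absent (limma-voom adjusted p from 0.0780 to 0.147).

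LMNB1 (ENSG00000113368, chr5:126776623-126837020, plus strand), the other B-type lamin gene, had 6.17, 6.89 and 7.94 scaled FPKM in the controls against 14.0, 6.67 and 9.40 in sh-JMJD1C 1 to 3. The groups overlapped, since sh-JMJD1C 2 lay among the controls while sh-JMJD1C 1 was well above any of them. The log2 fold change was 0.44 (SE 0.37, limma adjusted p = 0.529) on FPKM and 0.50 (limma-voom adjusted p = 0.378) on reads.

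**Figure D2:**
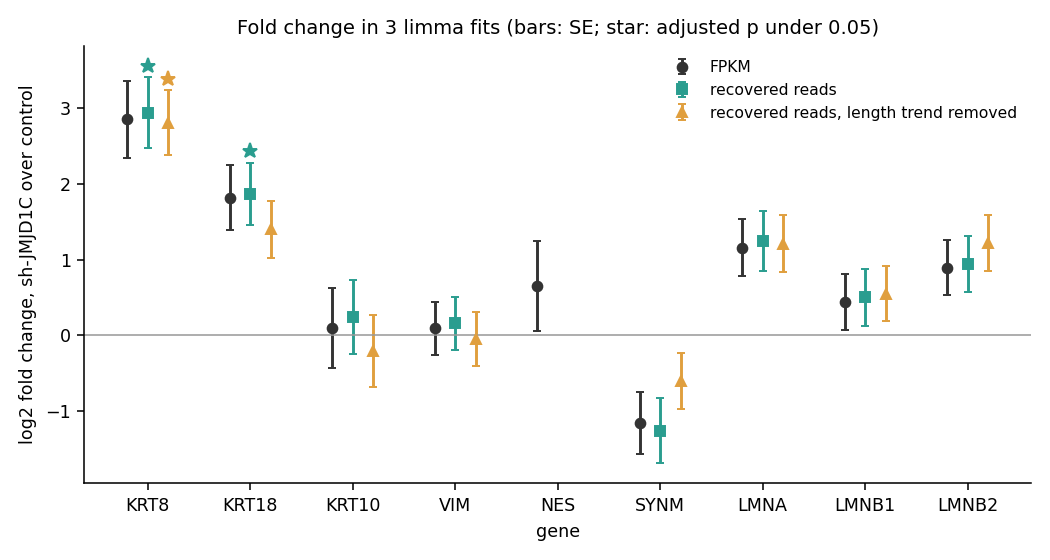
Log2 fold change of each tested member, sh-JMJD1C over control, in the limma fit on FPKM (black), in limma-voom on recovered reads (green) and with each library's length trend removed (orange); bars are standard errors and stars mark an adjusted p under 0.05. Stars stand over KRT8 (both fits on reads) and KRT18 (reads only), and SYNM is the member whose estimate shrinks most when the length trend is removed.

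Of the 9 members tested on FPKM, the groups did not overlap in 5, with KRT8, KRT18, LMNA and LMNB2 higher and SYNM lower. The same held for 26.7% of all genes tested on that scale, 12.2% higher and 14.5% lower. The median log2 fold change of the 3 lamins on reads was 0.94, against -0.08 for all genes. All 3 lamins were above 0 under every setting tried, with LMNB1 ranging from 0.05 to 0.78.

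Levels of different genes can be set side by side only per length, and the deposited FPKM divide by the summed length of all annotated transcripts, which lowers genes with many transcripts such as LMNA and KRT8. Scaled RPM per kilobase of the longest transcript were therefore used for the order. In the controls VIM (273 ± 36.5) and KRT18 (247 ± 84.4) led, followed by KRT8 (132 ± 40.6) and LMNA (106 ± 32.7). The ranges of each neighbouring pair over the libraries overlapped. Within each control, though, KRT18 was above KRT8 and KRT8 above LMNA, while VIM and KRT18 changed order between controls. LMNB1 (24.7 ± 2.36), SYNM (18.9 ± 3.67), KRT10 (18.6 ± 7.14) and LMNB2 (16.6 ± 5.32) formed a lower tier, below LMNA in every library. Their ranges overlapped one another, but LMNB1 was above LMNB2 within each control. NES (0.369 ± 0.356) and GFAP (0.118 ± 0.114) were far below and overlapped.

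In the sh-JMJD1C libraries the order on the same scale was KRT8 (1094 ± 578) and KRT18 (895 ± 229), which overlapped, then VIM (302 ± 39.0) and LMNA (251 ± 66.9), which also overlapped and lay below KRT18 in every library. LMNB1 (36.7 ± 12.9), LMNB2 (32.2 ± 4.75) and KRT10 (22.5 ± 14.9) overlapped in the next tier. The range of SYNM (8.38 ± 4.64) overlapped only that of KRT10 among them, and SYNM was below KRT10 within each sh-JMJD1C library. KRT8 made up 15.5%, 18.1% and 13.0% of the summed level of the 10 genes in control 1 to 3 against 26.2%, 48.1% and 44.6% in sh-JMJD1C 1 to 3. VIM made up 31.6%, 25.2% and 43.5% in the controls against 16.8%, 7.72% and 12.3% in the sh-JMJD1C libraries, although its own level differed little, since these shares sum to the whole.

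Ratios within a library need no scaling between libraries. The ratio of KRT8 plus KRT18 to VIM, per kilobase of longest transcript, was 1.43, 2.08 and 0.818 in control 1 to 3 against 3.93, 10.5 and 6.09 in sh-JMJD1C 1 to 3. The keratin pair exceeded vimentin in every library but control 3, and the groups did not overlap. The ratio of LMNA to LMNB1 plus LMNB2 was 3.03, 2.97 and 1.75 in the controls against 2.98, 5.16 and 3.02 in the sh-JMJD1C libraries, with overlapping groups, and so the balance of A-type to B-type lamin transcripts did not separate them.

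**Figure D3:**
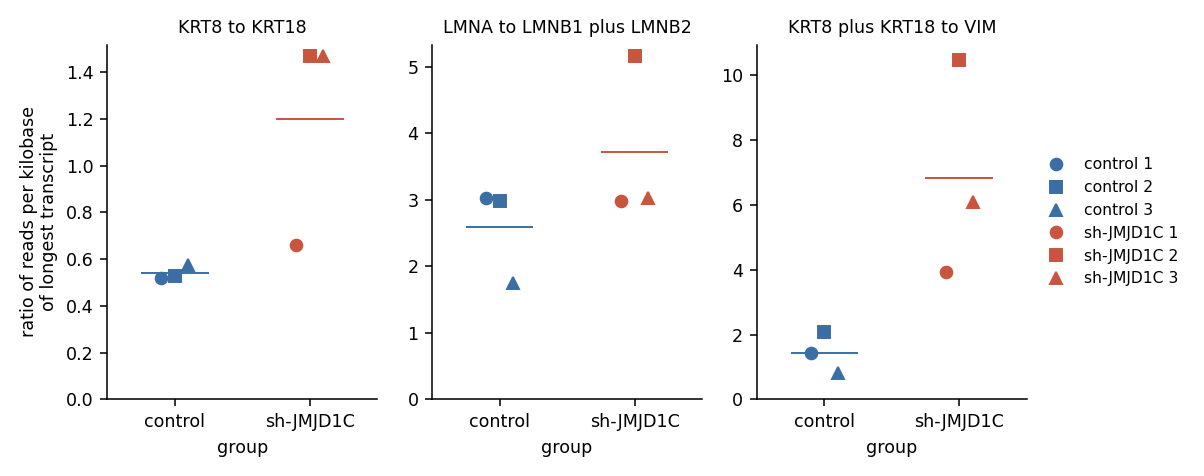
Ratios of members within each library (reads per kilobase of longest transcript, linear axes from 0; lines are group means). KRT8 to KRT18 reaches 1.47 in sh-JMJD1C 2 and 3 against at most 0.573 in the controls, LMNA to the B-type lamins overlaps between the groups, and KRT8 plus KRT18 to VIM does not.

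The deposited tables also hold the FPKM computed on rising shares of each library's reads, which show whether a level had settled at the depth reached. At a share of 0.5 the FPKM of KRT18 were within -0.922% to 4.69% of the full library's value over the 6 libraries, those of KRT8 within -7.68% to 3.26%, and those of VIM within -6.53% to 5.49%. SYNM (-17.0% to 3.04%), LMNB2 (-23.1% to 12.7%) and KRT10 (-23.1% to 3.55%) were less settled. At the deposited shares closest in size to control 1, between 497935 and 601513 reads, KRT8 had a log2 fold change of 2.77 (limma adjusted p = 0.0887) and KRT18 of 1.74 (limma adjusted p = 0.151), and the deposited FPKM of the groups did not overlap for either. LMNA (1.09) and LMNB2 (0.71) were also positive there, and their deposited FPKM, which are not scaled, overlapped between the groups both at that depth and in the full libraries.

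**Figure D4:**
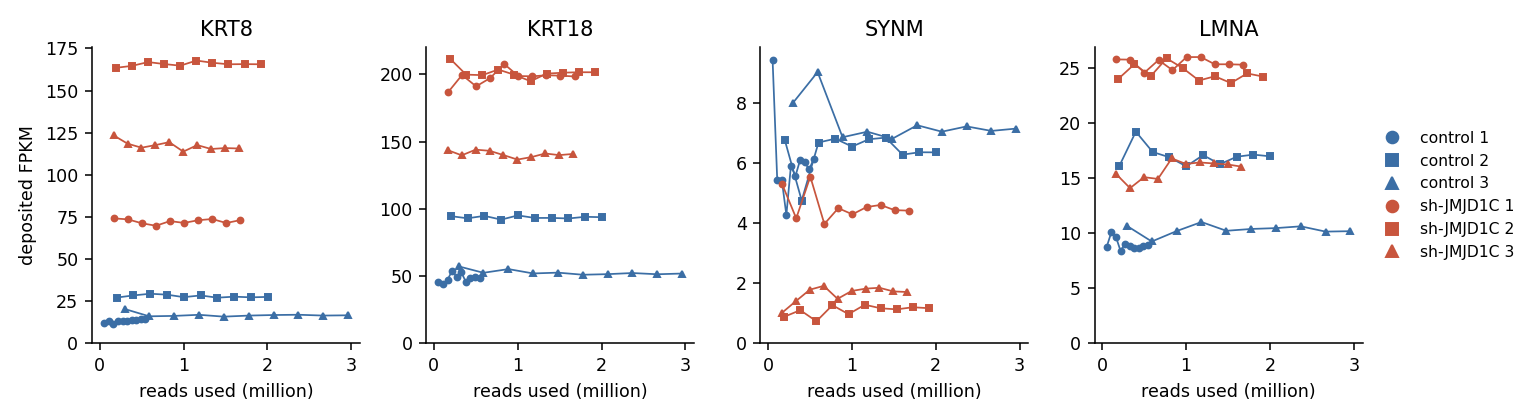
Deposited FPKM of KRT8, KRT18, SYNM and LMNA (linear axes from 0) against the number of reads used, with 1 line per library through the 10 deposited shares. Lines of KRT8 and KRT18 are nearly flat and the groups stay apart along them, while control 2 and sh-JMJD1C 3 run together for LMNA and the shallow points of SYNM scatter.

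Partner genes were read from lists of other filament genes, of proteins that link or chaperone filaments, of inner nuclear membrane and lamina proteins, and of the enzymes that process lamins. Of 28 other filament genes, 6 had enough reads for a test, and 0 of these were called by limma-voom. Of the 6, 3 had an unadjusted p under 0.05 in limma-voom, as did 3657 of all 11877 genes tested. BFSP1 and the keratins KRT7, KRT16, KRT17, KRT80, KRT86 and KRT81 are named here after their values were seen, and their values did not all differ in the same direction. Lack of overlap between the groups was common, at 26.7% of all genes tested on scaled FPKM. BFSP1 had the lowest adjusted p of the list on reads. It went from 6.62 ± 1.89 to 17.1 ± 6.54 scaled RPM without overlap (log2 fold change 1.47, limma-voom adjusted p = 0.0907). KRT16, with too few reads for limma-voom, had 1, 0 and 3 reads against 6, 24 and 10, without overlap as scaled RPM. KRT7, a type II simple keratin, went from 406 ± 98.4 to 755 ± 304 scaled RPM with overlapping groups (log2 fold change 0.84, limma-voom adjusted p = 0.185). KRT17, a type I keratin of stressed and basal epithelia, went from 198 ± 57.8 to 443 ± 205 scaled RPM without overlap (1.10, limma-voom adjusted p = 0.117). KRT80, a type II keratin, went from 286 ± 82.6 to 237 ± 66.1 scaled RPM with overlapping groups (-0.28, limma-voom adjusted p = 0.641). KRT86, a hair keratin, went from 14.1 ± 4.72 to 4.15 ± 2.77 scaled RPM without overlap (-1.74, limma-voom adjusted p = 0.127), and the hair keratin KRT81, with too few reads for that test, had 3, 6 and 14 reads against 0, 2 and 0. KRT19, a further simple keratin, had 1 read in all libraries together, and desmin and the neurofilament genes NEFL, NEFM and NEFH had 2 reads or fewer each.

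Among 13 linkers and chaperones, 12 were tested on reads, with 1 called higher, 1 called lower and a median log2 fold change of -0.12, where 3.71% of all genes were called higher and 1.81% lower. With the length trend removed the median turned to 0.50, against -0.02 for all genes, and 0 of the 12 were called. In that limma-voom fit 7 of the 12 had an unadjusted p under 0.05, as did 3111 of all 11877 genes. HSPB1, a small heat shock protein that binds filaments, had 128, 202 and 54.2 scaled RPM in control 1 to 3 against 598, 586 and 309 in sh-JMJD1C 1 to 3. It rose by 2.09 (SE 0.51) on the log2 scale (limma-voom adjusted p = 0.0391). DST, which encodes the giant linker dystonin, had 430, 319 and 352 scaled RPM in the controls against 114, 67.6 and 101 in the sh-JMJD1C libraries, and fell by 1.98 (SE 0.37) on the log2 scale (limma-voom adjusted p = 0.0197). Neither group of libraries overlapped the other for these genes, but both calls were lost with the length trend removed (HSPB1 1.36, adjusted p = 0.123; DST -0.86, adjusted p = 0.131; limma-voom). They were also lost when control 1, control 3 or either of sh-JMJD1C 2 and 3 was absent, with limma-voom adjusted p from 0.0581 to 0.164 for HSPB1 and from 0.0508 to 0.104 for DST, and HSPB1 lost its call without both libraries numbered 1 (0.0849). PLEC, which encodes plectin, the linker of keratin and vimentin filaments to junctions and to the nucleus, went from 654 ± 201 to 976 ± 488 scaled RPM with overlapping groups (limma-voom adjusted p = 0.495). Its log2 fold change moved from 0.47 on reads to 1.48 with the length trend removed, also uncalled (limma-voom adjusted p = 0.0766).

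All 20 lamina and nuclear envelope genes were tested on reads, with 0 called higher, 1 lower and a median of -0.11. A single call among these genes is close to the 5.52% called among all genes. SYNE1, which encodes the giant nesprin-1 of the bridge between nucleus and cytoskeleton, had 171, 152 and 148 scaled RPM in the controls against 54.9, 20.2 and 22.1 in the sh-JMJD1C libraries. It fell by 2.39 (SE 0.44) on the log2 scale (limma-voom adjusted p = 0.0197), and by 1.23 with the length trend removed, which was not called (adjusted p = 0.0726, limma-voom). The call of SYNE1 also ended when control 1, control 3 or either of sh-JMJD1C 2 and 3 was absent (limma-voom adjusted p from 0.0596 to 0.0994). In limma-voom 5 of the 20 genes had an unadjusted p under 0.05, as did 3657 of all 11877 genes tested. EMD (emerin), LBR (the lamin B receptor) and TMPO (the LAP2 proteins), which bind lamins directly, had log2 fold changes of 0.84, -0.54 and 0.03 on reads, all uncalled and with overlapping groups. Also uncalled but without overlap, BANF1 was higher (1.42, limma-voom adjusted p = 0.0806). SYNE2, TOR1AIP1 and TOR1AIP2 were lower without overlap (-1.29, -0.93 and -0.96, limma-voom adjusted p = 0.0633, 0.143 and 0.117). Among all genes tested on scaled FPKM, 12.2% were higher and 14.5% lower without overlap. Of the 5 processing enzymes 0 were called by limma-voom, with 0 at an unadjusted p under 0.05, and ZMPSTE24, the protease that matures prelamin A, went from 48.4 ± 23.9 to 29.9 ± 14.3 scaled RPM with overlap. In the limma fit on FPKM, 0 genes of these lists were called. At an unadjusted p under 0.05 in that fit were 4 of 8 other filament genes tested and 3 of 12 linkers and chaperones. So were 2 of 18 lamina and envelope genes and 0 of 5 enzymes, where 3658 of all 18383 genes were.

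**Figure D5:**
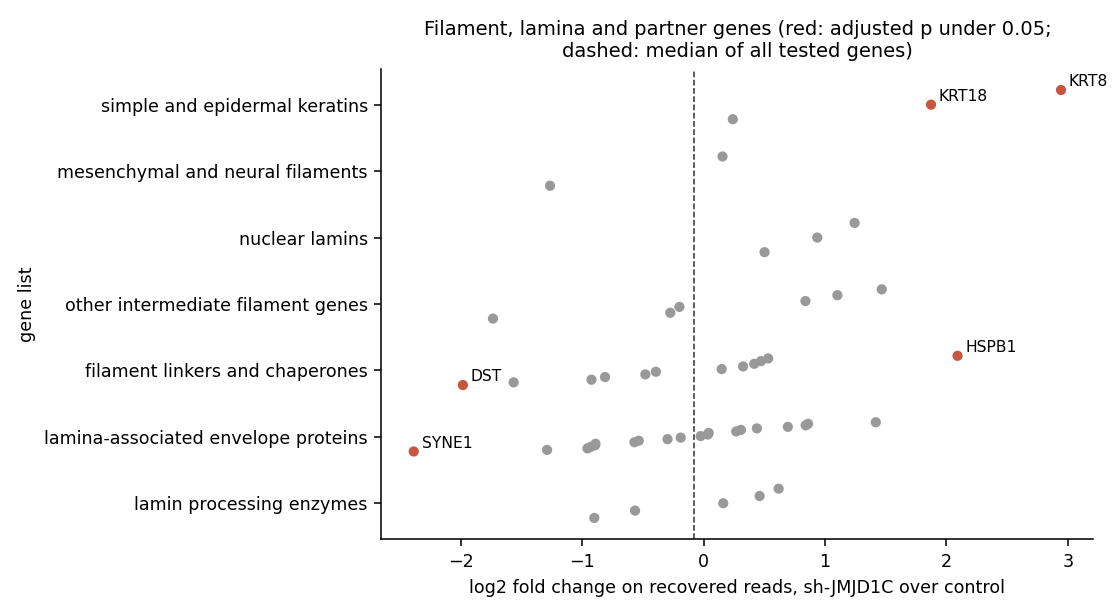
Log2 fold change on recovered reads (sh-JMJD1C over control) of each tested gene of the members' families and the partner lists, 1 point per gene; red points have an adjusted p under 0.05 and the dashed line is the median of all tested genes, -0.08. Red points are KRT8, KRT18 and HSPB1 on the higher side and DST and SYNE1 on the lower side.

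The pattern of each member over the 6 libraries was compared with 10210 protein-coding genes of at least 60 reads, as the root mean square difference of log2 level after centring each gene. Closest to VIM were UBR7 (0.0515), RAC1 (0.0538) and UBP1 (0.0832). Closest to KRT18 were CAPNS1 (0.109), TUBB4B (0.126) and NSMF (0.154), and closest to LMNA were RPS6KA4 (0.0605), ALDOA (0.0675) and SLC38A5 (0.0824). LMNB1 was nearest to MCCC2 (0.104), HNRNPAB (0.122) and ZNF512 (0.126). With so many genes and 6 libraries, some close matches occur for any gene, so these distances are a description only. Among the members, VIM and LMNB1 (0.272), LMNA and LMNB2 (0.293) and KRT18 and LMNA (0.322) were closer to each other than KRT8 was to KRT18 (0.657), and KRT8 and SYNM were the farthest apart (2.32).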

How the data were processed

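The authors deposited 1 table of FPKM per library, with columns computed on rising shares of the reads per the file headers. The full-library column was used unless a share is named. Per the submitters' processing notes, Bowtie 0.12.2 and the build hg38 were used, with no role stated. What counted the reads, with which annotation and strand setting, is not given in the sources used here. Whole reads were recovered from FPKM, gene length and library total. For 93.9% of the 29280 genes above 0, the summed length of all transcripts in GENCODE release 29 made the values whole within 0.05 reads. For the others the smallest length that did so was searched for, so whole values are no check of those genes. Symbols and hg38 coordinates came from GENCODE release 29. Groups follow the sample titles, 3 libraries each.

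Libraries were scaled by median ratios over the genes that were above 0 in every library and averaged 1 FPKM or more. Genes that averaged 0.5 FPKM or more were fitted as log2(scaled FPKM + 0.5) with limma 3.58.1 (R 4.3.3, trend option, two-sided, Benjamini-Hochberg at 0.05). This scale understates the change of low genes. Recovered reads of genes with at least 60 reads were fitted with limma-voom, also with a lowess trend (span 0.3) over the longest transcript removed. On simulated data the limma fit on FPKM recovered only a minority of the changed genes and the limma-voom fit nearly all. In both fits more than the nominal share of the calls were false. Whether these shares hold for the real libraries was not tested. Of the 10 members, 9 passed the filter on FPKM (NES only through sh-JMJD1C 1) and 8 the filter on reads. Exact binomial intervals at 95% and the limit of 3 reads cover counting error only.

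All 10 members were named, and of each partner list the genes called in either fit. The genes closest in pattern were the 3 with the smallest distance to VIM, KRT18, LMNA and LMNB1. EMD, LBR, TMPO, PLEC, ZMPSTE24, KRT19 and the neurofilament genes were named besides this rule for their known roles, after their values were seen. BANF1, SYNE2, TOR1AIP1, TOR1AIP2, BFSP1 and the keratins outside the 10 members were also named after their values were seen. The members and lists were chosen with earlier results of these data known. Alternatives are given in the closing section. The sequences of the keratin genes and of their copies are not reported here.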

Additional observations from a re-analysis of the deposited data

How the results depend on the processing

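Depth limits KRT10, NES and GFAP most, and 3 libraries per group leave single libraries able to decide a call. The limma fit on FPKM called 34 genes. It called 84 with a pseudocount of 0.1, 79 on FPKM as deposited, 2 after quantile normalization, 911 over protein-coding genes only and 118 with array weights. With a pseudocount of 1 or with no filter it called 0, with 3587 and 3821 genes at an unadjusted p under 0.05. On reads, limma-voom called 656 genes, and 406 with the length trend removed. Leaving out 1 library gave 0 to 692 genes on FPKM (0 without control 1, control 2, sh-JMJD1C 2 or sh-JMJD1C 3, with 1999 to 3610 at an unadjusted p under 0.05; 5 without control 3; 692 without sh-JMJD1C 1) and 31 to 2305 on reads (39 without control 1, 1187 without control 2, 34 without control 3, 2305 without sh-JMJD1C 1, 31 without sh-JMJD1C 2, 99 without sh-JMJD1C 3). Leaving out both libraries numbered 1 gave 0 on FPKM (4281 at an unadjusted p under 0.05). Chosen after seeing the data, leaving out both on reads gave 948, and shares of matched depth gave 126 on FPKM. Why the counts move so much was not tested.

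Of the 10 members, the limma fit on FPKM called 0, with 5 at an unadjusted p under 0.05. The count was 2 over protein-coding genes only, 2 on reads, 1 with the length trend removed, 2 on reads without both libraries numbered 1, 0 to 1 on FPKM without 1 library and 0 to 4 on reads without 1 library. KRT8 kept its direction under all 27 alternatives (log2 fold change 2.05 to 3.39), as did KRT18 (0.72, after quantile normalization, to 2.08), SYNM (-1.65 to -0.61), LMNA (0.77 to 1.45) and LMNB2 (0.56 to 1.22), and the ratios KRT8 to KRT18 (fold 1.83 to 2.73) and KRT8 plus KRT18 to VIM (3.29 to 5.28) kept theirs. KRT10 turned to -0.20 on FPKM as deposited, -0.34 after quantile normalization, -0.087 at matched depth, -0.15 without control 2, -0.36 without sh-JMJD1C 3, -0.21 with the length trend removed, and on reads -0.033 without control 2 and -0.23 without sh-JMJD1C 3. Single removals on FPKM gave KRT10 -0.36 to 0.44 and VIM -0.0031 to 0.23. VIM turned to -0.21 on FPKM as deposited, -0.80 after quantile normalization, -0.0031 without sh-JMJD1C 1, -0.12 without both libraries numbered 1 and -0.050 with the length trend removed. The cause was not tested.

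Pairing by replicate number was checked and not used: deviations of same-numbered libraries from their group means correlated at 0.023, 0.375 and 0.480, and the libraries share only a number. Control 1 correlated best with sh-JMJD1C 3 (0.085), so not every library matched its own number best. With the replicate block, the limma fit on FPKM called 0 genes (4406 at an unadjusted p under 0.05) and 0 members, and limma-voom on reads called 4260 genes of 11877 and 5 members (KRT8, KRT18, SYNM, LMNA and LMNB2).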
